A study of Mus musculus with 12 samples.

Results

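Chemokines are small secreted proteins that direct the movement of leukocytes, and the 10 chemokine ligands described here are Cxcl9, Cxcl10, Cxcl1, Cxcl12, Cxcl16, Cx3cl1, Ccl6, Ccl20, Ccl25 and Ccl28. Their rows were found in the count table by Ensembl identifier and gene symbol, and they are 10 of the 54838 genes listed there. All 10 passed the filter on low counts, which left 15938 genes to test. The values come from RNA sequencing of the ileum, the last part of the small intestine, of 12 adult female C57BL/6J mice kept under specific pathogen-free conditions. The water + PBS mice had normal drinking water during 7 days, followed by an i.p. injection of PBS. The water + Dex mice drank the same water and received 200 µg of dexamethasone (Dex), a synthetic glucocorticoid, in PBS. The ZnSO4 + PBS and ZnSO4 + Dex mice drank water with 25 mM ZnSO4 for 7 days before the same injections of PBS and of 200 µg Dex. Each of the 4 groups held 3 mice, all wild type, and the ileum was taken 2 h after the injection. The tissue was sequenced whole, so that epithelium, immune cells, stroma and muscle all contributed reads.

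A chemokine is recognised by a receptor on the surface of the responding cell, and the ligand with its receptor decides which leukocyte enters a tissue. Some ligands are made at a steady rate and guide resident cells, as Ccl25 does for T cells and Ccl28 for antibody-producing cells of the gut. Others, such as Cxcl9, Cxcl10, Cxcl1 and Ccl20, are inflammatory ligands whose genes are switched on by interferon or by the NF-kB pathway, and glucocorticoids are known to repress many inflammatory genes. In the intestine the epithelium, macrophages and stromal cells are all known sources of chemokines.

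The 250 bases before the start of 3 inflammatory members are shown here because these genes had the largest changes described below. They are taken from RefSeq on GRCm38.p6 and are written 5′ to 3′ on the strand of the gene. The promoters of Cxcl9 (chr5:92328080-92328329, minus strand), Cxcl10 (chr5:92348890-92349139, minus strand) and Cxcl1 (chr5:90890995-90891244, plus strand) were searched on both strands for the interferon-stimulated response element (ISRE, GAAA and GAAA with 2 bases between), the gamma-activated site (GAS, TTC and GAA with 3 bases between), the NF-kB consensus and the palindromic glucocorticoid response element (GRE, AGAACA and TGTTCT with 3 bases between), and capitals mark the matches.
Cxcl9: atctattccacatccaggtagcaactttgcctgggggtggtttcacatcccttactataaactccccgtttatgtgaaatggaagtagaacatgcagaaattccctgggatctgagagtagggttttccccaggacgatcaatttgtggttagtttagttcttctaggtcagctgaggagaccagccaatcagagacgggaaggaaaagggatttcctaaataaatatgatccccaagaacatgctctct
Cxcl10: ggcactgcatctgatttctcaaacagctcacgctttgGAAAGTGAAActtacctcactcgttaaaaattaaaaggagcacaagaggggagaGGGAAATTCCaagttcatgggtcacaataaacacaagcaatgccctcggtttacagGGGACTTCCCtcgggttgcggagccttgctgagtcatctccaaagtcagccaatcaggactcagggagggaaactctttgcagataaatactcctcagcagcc
Cxcl1: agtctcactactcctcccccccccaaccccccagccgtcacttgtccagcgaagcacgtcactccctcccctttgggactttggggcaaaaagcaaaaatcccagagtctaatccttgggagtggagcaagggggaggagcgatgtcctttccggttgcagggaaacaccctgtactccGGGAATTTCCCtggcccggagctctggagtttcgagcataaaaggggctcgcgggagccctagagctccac
Cxcl10 had 1 ISRE match at bases 213 to 204 before the start and NF-kB matches at bases 159 to 150 and 103 to 94. Cxcl1 had 2 overlapping NF-kB matches, at bases 71 to 62 and 70 to 61. Cxcl9 had no match to these 4 motifs in the window. Sites that depart from these patterns were not searched for, so a lack of matches does not mean that no site is present. Of 32851 promoters of the same length, 2.98% held an ISRE match, 7.02% a GAS match, 3.9% an NF-kB match and 0.00913% a GRE match. Among the other members with a promoter entry, Ccl20 had 1 NF-kB match, and no match was found in Cxcl12, Cx3cl1, Ccl6, Ccl25 or Ccl28. Cxcl16 had no entry.

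Total counts per library lay between 10760132 and 11827487. Fkbp5, a gene induced by the glucocorticoid receptor, rose 10.1-fold with Dex in water mice, and Mt1, which encodes a zinc-binding metallothionein, rose 27.7-fold with ZnSO4 in PBS mice, with no overlap between the groups. Slc10a2 and Fabp6, the bile acid transporter and carrier of ileal enterocytes, had at least 9177 and 40670 normalised counts in the 12 mice. Reads on 8 B cell markers varied most within groups, by 22.1-fold among the water + PBS mice (334 to 7388 normalised counts) and by 39.5-fold among the ZnSO4 + PBS mice (139.9 to 5529), and the second mouse of each of these groups held the most.

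Per length of exon, Ccl6 was the most abundant of the 10 ligands and Cxcl1 the least abundant. The mean over the 12 mice was 216 ± 30.1 (SD) RPKM, the reads per kb scaled to library size, for Ccl6, 50.3 ± 7.58 for Ccl25, 37.4 ± 17.8 for Ccl28 and 20.4 ± 6.88 for Cx3cl1. It was 9.58 ± 6.25 for Ccl20, 7.51 ± 0.856 for Cxcl12, 7.32 ± 1.25 for Cxcl16, 4.83 ± 2.85 for Cxcl9, 1.55 ± 1.87 for Cxcl10 and 0.451 for Cxcl1. The means of Cxcl12 and Cxcl16 lay within each other's SD. Those of Cxcl12, Cxcl16 and Cxcl9 also lay within the SD of Ccl20, and those of Cxcl12 and Cxcl16 within the SD of Cxcl9. The means of Ccl25 and Cx3cl1 lay within the SD of Ccl28, and that of Cxcl1 within the SD of Cxcl10. None of these cases held in reverse. The exonic lengths of Cxcl10 (2252 bases) and Cxcl1 (1875 bases) cover the whole genes, because the annotation holds transcripts that keep the introns, which lowers their values per length. Merged exons also came to 7445 bases for Ccl25 and 1795 for Ccl6. The median normalised counts over the 12 mice were 4297 for Ccl25 and 4402 for Ccl6. The distance between these 2 ligands per length thus rests on the merged lengths. Across mice, the level spanned 1.49-fold from lowest to highest for Cxcl12, 1.52-fold for Ccl6 and 35.9-fold for Cxcl10.

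**Figure D1:**
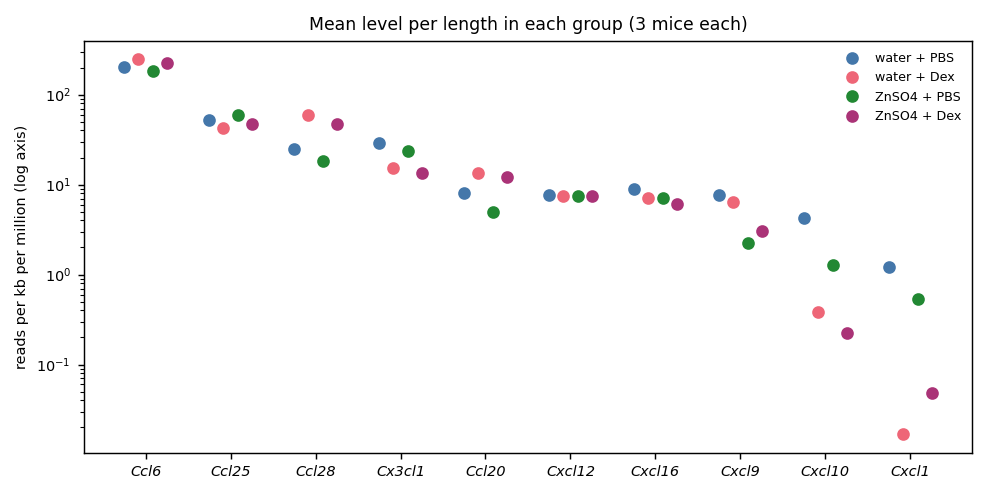
Mean level of each ligand in RPKM (vertical log axis) in the 4 groups, as 1 point per group of 3 mice, with genes ordered by their mean over all 12 mice. Ccl6 stands highest, with a mean of 216 over all mice, and the groups are spread most widely for Cxcl10 and Cxcl1.

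Zinc and Dex changed different numbers of the 10 ligands, as tested with edgeR's quasi-likelihood test and called at a Benjamini-Hochberg adjusted p under 0.05 over all tested genes. With ZnSO4 in PBS mice, 2 ligands were called, both lower (Cxcl9 and Cxcl10), while 4.66% of all tested genes were called (2.11% higher and 2.54% lower). With Dex in water mice, 3 fell (Cxcl10, Cxcl1 and Cx3cl1) and 1 rose (Ccl28), against 9.93% of all genes (5.41% higher and 4.51% lower). Dex thus moved ligands in both directions, and no rise was called for zinc. Among Dex mice, ZnSO4 gave 0 calls against 4.37% of all genes, with 2 ligands at an unadjusted p under 0.05 and 1 call by DESeq2. Among ZnSO4 mice, Dex gave 3 calls against 13.7% of all genes (6.65% higher and 7.08% lower), with Cxcl10 and Cx3cl1 lower and Ccl28 higher. ZnSO4 + Dex against water + PBS gave 6 calls against 23.3% of all genes (11.5% higher and 11.9% lower), of which Ccl28 was higher and Cxcl9, Cxcl10, Cxcl1, Cxcl16 and Cx3cl1 were lower. These comparisons share groups, so their calls are not independent of each other.

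Averaging the zinc effect over both injections used all 12 mice and called 4 ligands, all lower (Cxcl9, Cxcl10, Cxcl16 and Ccl28), against 12.8% of all genes (6.24% higher and 6.52% lower). Of these, 2 also passed a size limit of 0.8 on the LFC, the log2 fold change, as did 2.71% of all genes. The Dex effect averaged over both waters called 7 ligands against 21.5% of all genes (10.4% higher and 11.2% lower), with Ccl28 and Ccl6 higher and Cxcl10, Cxcl1, Cx3cl1, Cxcl16 and Ccl25 lower, and 4 of them passed the size limit of 0.8, as did 6.31% of all genes. The interaction, in which the zinc effect in Dex mice is set against the zinc effect in PBS mice, called 0 ligands and 0% of all genes. No ligand reached an unadjusted p under 0.05 for the interaction, 794 of all genes did, and DESeq2 also called 0 ligands. By the separation of the mice alone, ZnSO4 + PBS lay wholly below water + PBS for 4 ligands (12.9% of all genes) and wholly above for 1 (12.4%), and water + Dex lay wholly below water + PBS for 5 ligands (14.5%) and wholly above for 2 (15.2%). The median LFC of the 10 ligands was -0.40 for zinc in PBS mice and -0.27 for Dex in water mice, beside -0.01 for all genes in both comparisons.

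**Figure D2:**
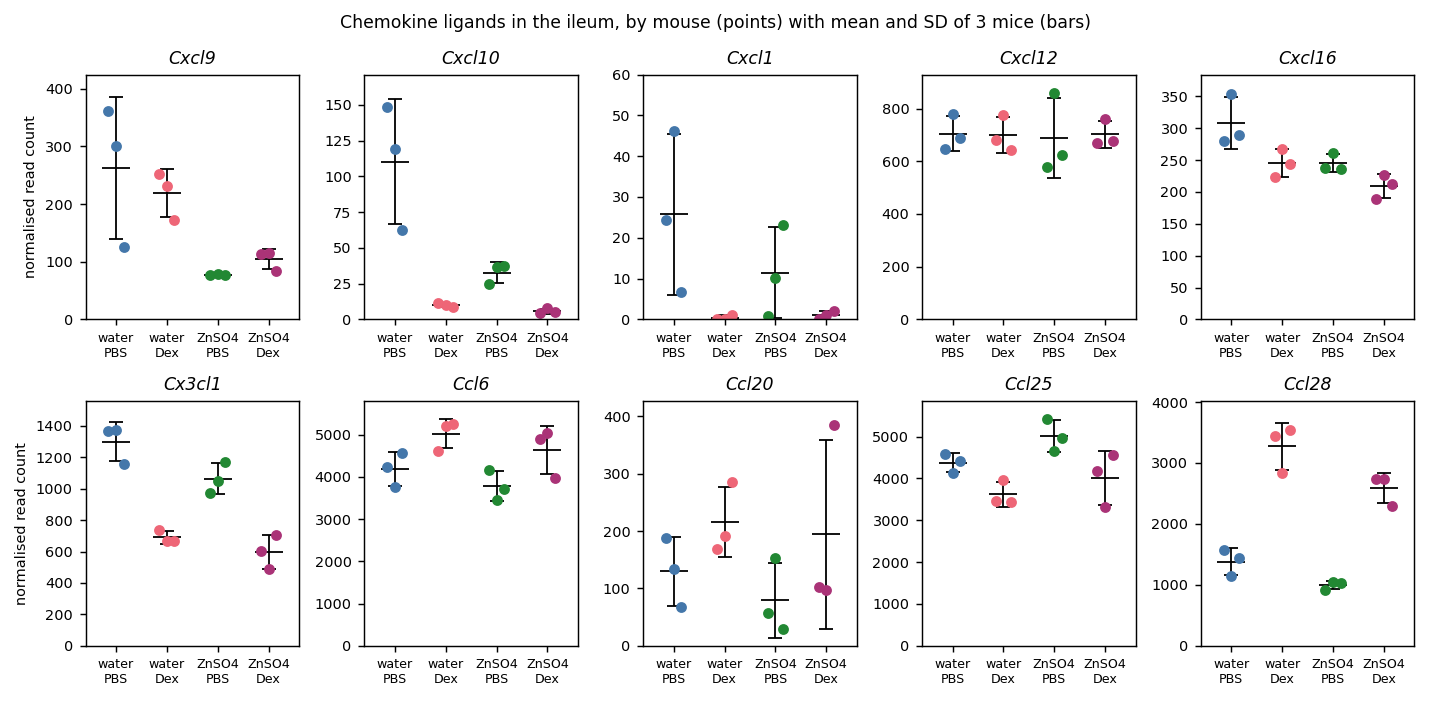
Normalised read counts (vertical axis, from 0, with a scale per gene) of the 10 ligands in each mouse (points) by group, with the mean and SD of 3 mice as bars. Cxcl9 separates by drinking water. Cxcl10 does not overlap between groups and falls in the order water + PBS, ZnSO4 + PBS, water + Dex, ZnSO4 + Dex. Ccl28 is at least 2298 in all Dex mice and at most 1575 in all PBS mice, and Cxcl12 is similar in all groups.

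Cxcl9 (ENSMUSG00000029417, chr5:92321347-92328079, minus strand, mm10) encodes a ligand of CXCR3 that attracts activated T cells and is induced by interferon gamma. In water + PBS mice it had 362, 300.0 and 125 normalised counts (262 ± 123, mean ± SD, n = 3), and in ZnSO4 + PBS mice 76.4, 78.7 and 77.8 (77.6 ± 1.18). All ZnSO4 + PBS mice lay below all water + PBS mice, and the LFC was -1.75 (SE 0.32, edgeR quasi-likelihood test, adjusted p = 0.011), a 3.38-fold lower level. In this whole tissue, fewer cells that make a transcript and less transcript per cell cannot be told apart. Counts were 252, 231 and 172 in water + Dex mice (218 ± 41.6) and 113, 115 and 84.4 in ZnSO4 + Dex mice (104 ± 17.2), again without overlap. The zinc LFC among Dex mice was -1.06 (95% interval -1.75 to -0.38), with an adjusted p of 0.0831 that missed the threshold. Over both injections all 6 ZnSO4 mice lay below all 6 water mice, which held for 2.62% of all genes, and the LFC was -1.41 (SE 0.22, adjusted p = 0.00185).

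No Dex effect on Cxcl9 was called. The Dex LFC was -0.27 in water mice (95% interval -0.92 to 0.39, adjusted p = 0.66) and 0.43 in ZnSO4 mice (-0.27 to 1.12, adjusted p = 0.448), although all 3 ZnSO4 + Dex mice lay above the 3 ZnSO4 + PBS mice. ZnSO4 + Dex against water + PBS gave an LFC of -1.33 (SE 0.31, adjusted p = 0.00986). The call for zinc in PBS mice was lost at an adjusted p of 0.0501 without the first ZnSO4 + PBS mouse, at 0.0579 with only the 2 groups compared in the fit and at 0.0852 without the 2 libraries richest in B cell reads, with LFCs of -1.74, -1.74 and -1.66. Leaving out the 2 B cell-rich libraries also removed a mouse from both groups. The call was kept in 11 of 12 fits with 1 library left out and in 7 of 9 other settings. A fit of all 12 mice with the level of B cell markers as a covariate was among these 7. The zinc effect in Dex mice passed without the third water + PBS mouse (adjusted p = 0.00724).

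Cxcl10 (ENSMUSG00000034855, chr5:92346638-92348889, minus strand), the promoter of which held the ISRE and NF-kB matches above, encodes a further CXCR3 ligand. It lies 18558 bases from Cxcl9. Water + PBS mice had 149, 119 and 62.7 normalised counts (110 ± 43.8), and ZnSO4 + PBS mice had 24.5, 36.6 and 37.1 (32.7 ± 7.11). Water + Dex mice had 11.2, 9.72 and 8.65 (9.84 ± 1.26), and ZnSO4 + Dex mice had 4.15, 7.69 and 5.34 (5.72 ± 1.80). The 4 groups followed each other in this order with no overlap between neighbours, which were 3.37, 3.33 and 1.72-fold apart in their means.

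Dex lowered Cxcl10 in both waters. Its LFC was -3.47 in water mice (SE 0.35, adjusted p = 6.97e-05), an 11.1-fold lower level, and -2.48 in ZnSO4 mice (SE 0.39, adjusted p = 0.00119). Zinc lowered it in PBS mice, with an LFC of -1.75 (SE 0.30, adjusted p = 0.00865), and the value in Dex mice was -0.76 (95% interval -1.73 to 0.22, adjusted p = 0.401), where reads were few. The combined treatment gave -4.23 (SE 0.37, adjusted p = 1.71e-05). The interaction was 0.99 (95% interval -0.22 to 2.20, adjusted p = 0.952), so the zinc effects in PBS and Dex mice were not shown to differ. The call for zinc in PBS mice was lost with only the 2 groups compared in the fit (LFC -1.73, adjusted p = 0.051) and without the 2 libraries richest in B cell reads (LFC -1.78, adjusted p = 0.0614). It was kept in 12 of 12 fits with 1 library left out and in 6 of 8 other settings, among them the B cell covariate. A stretch of 5.91% of the exonic bases of Cxcl10 overlaps Art3 on the opposite strand, and whether the counting used the strand is not given in the sources used here.

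Cxcl9 and Cxcl10 thus had LFCs of -1.75 each for zinc in PBS mice, whereas their Dex LFCs in water mice were -0.27 and -3.47. The number of Cxcl9 reads per Cxcl10 read within a mouse does not depend on library size. It was 2.43, 2.51 and 2.00 in water + PBS mice and 3.12, 2.15 and 2.10 in ZnSO4 + PBS mice. After Dex it was 22.6, 23.8 and 19.9 in water mice and 27.25, 15 and 15.8 in ZnSO4 mice, so that every Dex mouse lay above every PBS mouse. The values after Dex are imprecise, since they rest on 10, 9 and 8 Cxcl10 reads in water mice and 4, 8 and 5 in ZnSO4 mice. The geometric mean of the ratio was 8.59-fold higher in Dex than in PBS mice (log2 difference 3.10), and the log2 difference of ZnSO4 to water mice was -0.09. The ratio was chosen after the LFCs of both genes had been seen, so these values are a description and no test is given.

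**Figure D3:**
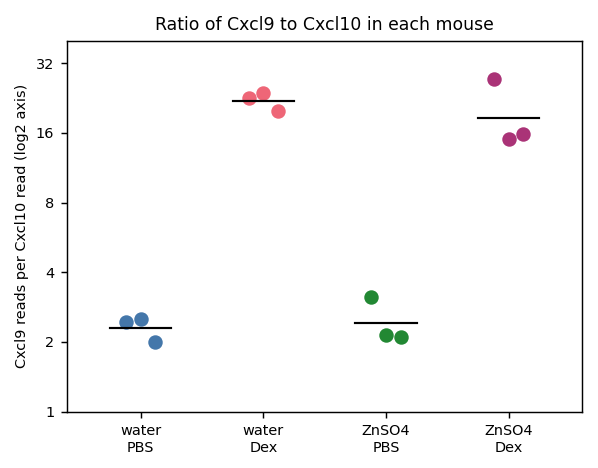
Cxcl9 reads per Cxcl10 read in each of the 12 mice (points, vertical log2 axis), with the geometric mean of 3 mice as a line. The PBS mice lie between 2.00 and 3.12 and the Dex mice between 15 and 27.25.

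The T cells that CXCR3 ligands attract have markers that moved with zinc. Among all tested genes, 2.54% were called lower with ZnSO4 in PBS mice and 6.52% over both injections. Of 8 T cell markers, 1 fell with ZnSO4 in PBS mice (Cd8a, LFC -1.14, adjusted p = 0.0133) and 5 fell over both injections (Cd3d, Cd3e, Cd3g, Cd8a and Cd8b1). Their summed level was 906 to 1601 normalised counts in water + PBS, 881 to 1187 in water + Dex, 425 to 943 in ZnSO4 + PBS and 457 to 502 in ZnSO4 + Dex mice, and each of the 8 had reads in every library. Whether this has a part in the lower Cxcl9 and Cxcl10 was not tested.

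Cxcl1 (ENSMUSG00000029380, chr5:90891241-90893115, plus strand) encodes a neutrophil attractant and had few reads. Water + PBS mice had 25, 46 and 7 reads, and water + Dex mice had 0, 0 and 1. ZnSO4 + PBS mice had 1, 11 and 25 reads, and ZnSO4 + Dex mice had 0, 1 and 2. All Dex mice thus held at most 2 reads, and the PBS mice ranged from 1 to 46. Scaled to library size, the summed reads in water + PBS mice were 69.7 times those in water + Dex mice (95% interval 12.1 to 2790, which covers counting error only), and the adjusted p was 0.0197 in the quasi-likelihood test. Among ZnSO4 mice the ratio of PBS to Dex was 11.2 (3.55 to 56.9) at an adjusted p of 0.108, with 1 ZnSO4 + PBS mouse inside the range of the Dex mice. Averaged over both waters, Cxcl1 fell with Dex at an adjusted p of 0.00441, and the zinc effect in PBS mice was not called (adjusted p = 0.449). The call for Dex in water mice was lost when any of the 3 water + Dex mice or the second water + PBS mouse was left out (adjusted p from 0.0629 to 0.0784).

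Ccl20 (ENSMUSG00000026166, chr1:83116766-83119167, plus strand), the ligand of CCR6 made by the epithelium over lymphoid follicles, was not called in any comparison and varied widely between mice. It had 188, 134 and 67.5 normalised counts in water + PBS, 169.5, 192 and 285 in water + Dex, 56.6, 153 and 28.7 in ZnSO4 + PBS, and 102, 97.0 and 385 in ZnSO4 + Dex mice. Neighbouring groups overlapped throughout. The Dex LFC over both waters was 1.01 (95% interval 0.02 to 2.00, adjusted p = 0.142), and the zinc LFC over both injections was -0.43 (-1.42 to 0.55, adjusted p = 0.569). Without the second ZnSO4 + PBS mouse the Dex LFC was 1.46 at an adjusted p of 0.0386. Markers of follicle-associated epithelium and M cells summed to 1945 to 3993 in water + PBS and 2030 to 2587 in water + Dex mice. The sums were 1697 to 2816 in ZnSO4 + PBS and 1762 to 1975 in ZnSO4 + Dex mice. Single markers varied more than the sum: in water + PBS mice Gp2 ranged from 4.86 to 67.2, Sox8 from 0 to 11.04 and Spib from 72.0 to 946. The others there ranged from 342 to 463 (Ccl9), 272 to 506 (Tnfaip2), 527 to 823 (Anxa5) and 517 to 1272 (Marcksl1). The part of these markers in the spread of Ccl20 was not tested.

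Cx3cl1 (ENSMUSG00000031778, chr8:94772009-94782427, plus strand), also called fractalkine, is anchored in the cell membrane and binds CX3CR1 of intestinal macrophages. It had 1369, 1376 and 1157 normalised counts in water + PBS mice (1301 ± 124) and 740.3, 667 and 667 in water + Dex mice (692 ± 42.3). ZnSO4 + PBS mice had 974, 1047 and 1172 (1064 ± 99.99), and ZnSO4 + Dex mice had 600.3, 490.0 and 707 (599 ± 109). All 6 Dex mice lay below all 6 PBS mice, which held for 4.89% of all genes. Dex lowered Cx3cl1 in water mice, with an LFC of -0.91 (SE 0.13, adjusted p = 0.000778), and in ZnSO4 mice, with an LFC of -0.83 (SE 0.13, adjusted p = 0.00103). The zinc LFC over both injections was -0.25 (95% interval -0.44 to -0.05, adjusted p = 0.0891), and it passed without the third ZnSO4 + Dex mouse (adjusted p = 0.0299). Among 7 endothelial markers, Kdr, the main VEGF receptor of blood vessels, fell with Dex over both waters (LFC -0.96, adjusted p = 1.04e-05) and Lyve1 of lymphatic vessels rose (LFC 1.40, adjusted p = 3.27e-08). Of all genes, 10.4% were called higher and 11.2% lower with Dex over both waters. The summed endothelial level was 2243 to 2935 in water + PBS and 2601 to 2785 in water + Dex mice. It was 2774 to 2974 in ZnSO4 + PBS and 2803 to 3062 in ZnSO4 + Dex mice. Its part in the fall of Cx3cl1 was not tested.

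Cxcl16 (ENSMUSG00000018920, chr11:70453983-70459984, minus strand) is the other membrane-anchored member and binds CXCR6 of T cells. Water + PBS mice had 279, 354 and 289 normalised counts (307 ± 40.8), water + Dex mice 224, 268 and 244 (245 ± 21.9), ZnSO4 + PBS mice 238, 261 and 236 (245 ± 13.8) and ZnSO4 + Dex mice 189, 227 and 213 (209 ± 19.2). Both treated groups with 1 agent lay wholly below water + PBS, and they overlapped each other. ZnSO4 + Dex against water + PBS gave an LFC of -0.55 (SE 0.12, adjusted p = 0.00585). The zinc and Dex effects averaged over the other factor were -0.28 each, with adjusted p of 0.049 and 0.0352. The zinc call was lost when any library but the second ZnSO4 + Dex mouse was left out (adjusted p from 0.0506 to 0.119), and the Dex call was lost without the second water + PBS mouse, the first or the third water + Dex, the first or the second ZnSO4 + PBS or the first or the third ZnSO4 + Dex mouse (0.0536 to 0.0823). Without the 2 libraries richest in B cell reads the adjusted p was 0.0783 for zinc and 0.13 for Dex. An 18.3% share of its exonic bases overlaps Zmynd15 on the opposite strand, so its counts are uncertain if the strand was not used.

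Ccl28 (ENSMUSG00000074715, chr13:119623819-119654359, plus strand), an epithelial ligand that attracts IgA-producing cells through CCR10, was the member that rose most with Dex. It had 1575, 1136 and 1436 normalised counts in water + PBS mice (1382 ± 224) and 3450, 2834 and 3536 in water + Dex mice (3273 ± 383). ZnSO4 + PBS mice had 919, 1044 and 1035 (999 ± 69.5), and ZnSO4 + Dex mice had 2741, 2729 and 2298 (2590 ± 253). The 4 groups did not overlap, in the order water + Dex, ZnSO4 + Dex, water + PBS, ZnSO4 + PBS, and all Dex mice lay above all PBS mice, as for 4.85% of all genes. Dex raised Ccl28 in water mice (LFC 1.24, SE 0.13, adjusted p = 9.64e-05) and in ZnSO4 mice (LFC 1.37, SE 0.13, adjusted p = 4.26e-05). The interaction was 0.13 (95% interval -0.27 to 0.53).

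Zinc went the other way for Ccl28. Its LFC averaged over both injections was -0.40 (SE 0.09, adjusted p = 0.0139), and the separate values of -0.47 in PBS mice (adjusted p = 0.0647) and -0.34 in Dex mice (adjusted p = 0.172) missed the threshold although neither pair of groups overlapped. The value in PBS mice passed without the second water + PBS mouse (adjusted p = 0.0296) and by DESeq2 (0.0181). The combined treatment gave an LFC of 0.91 against water + PBS (SE 0.13, adjusted p = 0.000467).

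Ccl25 (ENSMUSG00000023235, chr8:4325210-4360020, plus strand), the small intestinal ligand of CCR9, had 4595, 4130 and 4416 normalised counts in water + PBS mice (4380 ± 235) and 3473, 3972 and 3437 in water + Dex mice (3627 ± 299). It had 5421, 4662 and 4963 in ZnSO4 + PBS mice (5015 ± 382) and 4178, 3314 and 4570 in ZnSO4 + Dex mice (4020 ± 643). Dex mice lay below PBS mice within each water. The Dex LFC was -0.30 over both waters (SE 0.08, adjusted p = 0.0247), with -0.27 in water mice (adjusted p = 0.191) and -0.32 in ZnSO4 mice (adjusted p = 0.102). The averaged call was lost without the first or the third mouse of either water group or the first ZnSO4 + PBS mouse (adjusted p from 0.0514 to 0.0669). ZnSO4 + PBS mice all lay above water + PBS mice, but the zinc LFC of 0.17 over both injections (95% interval -0.01 to 0.35, adjusted p = 0.199) was not called, and it passed without the second ZnSO4 + Dex mouse (adjusted p = 0.0361). That mouse had the lowest Ccl25 and Cx3cl1 of all 12 mice, and its 9 enterocyte markers summed to 136800 normalised counts, beside 214900 and 235000 in the other ZnSO4 + Dex mice. The sum was 194600 to 225600 in water + PBS, 224900 to 267200 in water + Dex and 194600 to 273500 in ZnSO4 + PBS mice, and its part in the values of Ccl25 and Cx3cl1 was not tested. Ccl25 and Ccl28, both made by epithelium, thus moved in opposite directions with Dex. A 2.74% share of the exonic bases of Ccl25 overlaps Elavl1 on the opposite strand.

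Ccl6 (ENSMUSG00000018927, chr11:83587882-83593087, minus strand), a myeloid chemokine of rodents that binds CCR1, had the highest level per length and a small change. It had 4234, 3760 and 4570 normalised counts in water + PBS, 4622, 5210 and 5250 in water + Dex, 4159, 3452 and 3724 in ZnSO4 + PBS and 4910, 5040 and 3986 in ZnSO4 + Dex mice. Water + Dex mice lay above water + PBS mice, and the ZnSO4 groups overlapped. Over both waters the Dex LFC was 0.28 (SE 0.08, adjusted p = 0.0287), and the zinc LFC over both injections was -0.13 (95% interval -0.31 to 0.05, adjusted p = 0.316). The Dex call was lost without the first or the second water + PBS, the second or the third water + Dex, the second or the third ZnSO4 + PBS or the first ZnSO4 + Dex mouse (adjusted p from 0.0546 to 0.0827), and at 0.135 without the 2 libraries richest in B cell reads. Of 8 macrophage markers, 3 rose with Dex over both waters, beside 10.4% of all genes: Cd163 (LFC 1.30, adjusted p = 0.00646), Mrc1 (0.87, 0.00024) and C1qa (0.32, 0.0176). Their list summed to 3025 to 3856 normalised counts in water + PBS, 3509 to 4132 in water + Dex, 2647 to 2886 in ZnSO4 + PBS and 3228 to 3805 in ZnSO4 + Dex mice, with reads on all 8 in every library. Their part in the value of Ccl6 was not tested.

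Cxcl12 (ENSMUSG00000061353, chr6:117168535-117181367, plus strand), the stromal ligand of CXCR4, did not differ detectably between the groups. It had 647, 778 and 689.8 normalised counts in water + PBS, 680.1, 777 and 644 in water + Dex, 579, 860.3 and 622 in ZnSO4 + PBS and 669, 759.9 and 678 in ZnSO4 + Dex mice. The groups overlapped throughout. The LFC over both injections was -0.02 for zinc (95% interval -0.23 to 0.20), and that over both waters was 0.01 for Dex (-0.20 to 0.23).

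**Figure D4:**
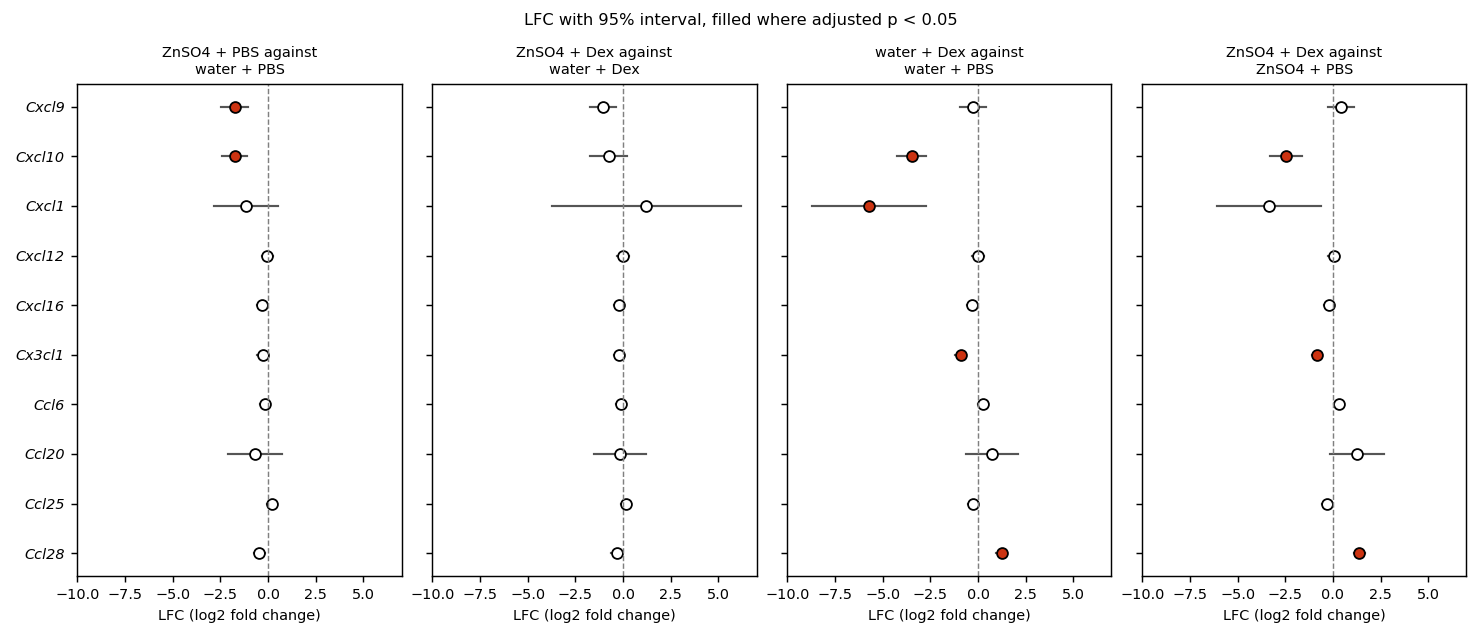
LFC (horizontal axis, log2) with its 95% interval for each ligand in the 4 comparisons of 1 agent at a time, filled where the adjusted p was under 0.05. Filled points are Cxcl9 and Cxcl10 for zinc in PBS mice, Cxcl10, Cxcl1, Cx3cl1 and Ccl28 for Dex in water mice, and Cxcl10, Cx3cl1 and Ccl28 for Dex in ZnSO4 mice.

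Receptors carry the ligand's signal on the responding leukocyte, and 19 of 23 listed chemokine receptors were tested. With ZnSO4 in PBS mice 1 fell (beside 2.54% of all genes), and with Dex in water mice 6 fell (4.51%) and 0 rose (5.41%). Cxcr6, the receptor of Cxcl16, had 73.0, 87.3 and 67.5 normalised counts in water + PBS mice and 36.8, 38.9 and 37.8 in water + Dex mice, without overlap (LFC -1.002, SE 0.18, adjusted p = 0.00346). In ZnSO4 + PBS mice it had 46.2, 61.3 and 46.3, and in ZnSO4 + Dex mice 18.7, 20.2 and 14.95. With the combined treatment the LFCs were -2.07 (adjusted p = 2.15e-05) for Cxcr6 and -0.55 for its ligand Cxcl16, and their difference was not tested. Ccr9, the receptor of Ccl25, fell with ZnSO4 in PBS mice from 183, 242 and 174 to 118, 108 and 84.3 (LFC -0.95, SE 0.22, adjusted p = 0.0361), while Ccl25 was not called. Ccr1, a receptor of Ccl6, fell with Dex in water mice (LFC -1.003, adjusted p = 0.0122). Ccl6 was not called in that comparison (LFC 0.26), and its rise was called only over both waters.

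Cx3cr1, the receptor of Cx3cl1, fell with Dex over both waters (LFC -0.62, SE 0.14, adjusted p = 0.00715), as its ligand did. Ackr3, which takes up Cxcl12 without classical signalling, rose with Dex over both waters (LFC 0.45, SE 0.10, adjusted p = 0.00716), while Cxcl12 itself was not called. Cxcr3, the shared receptor of Cxcl9 and Cxcl10, had 20.4, 28.1 and 21.9 normalised counts in water + PBS and 11.4, 10.6 and 7.48 in ZnSO4 + Dex mice (LFC -1.24, adjusted p = 0.0462), and neither agent alone was called for it (adjusted p = 0.857 for zinc in PBS mice and 0.798 for Dex in water mice). Ccr10 fell with the combined treatment (LFC -0.88, adjusted p = 0.0274), in which its ligand Ccl28 rose. Cxcr4 and Ccr6, which B cells also carry, were not called and ranged from 61.3 to 413 and from 5.84 to 241 among water + PBS mice. Cxcr2, the receptor of Cxcl1, and Ccr3, a further receptor of Ccl28, were too low to test. Ackr1, a scavenger of inflammatory chemokines on blood vessels, fell with Dex in water mice (LFC -1.85, adjusted p = 0.00188), and so did Ccr2 (LFC -1.24, adjusted p = 0.00385).

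**Figure D5:**
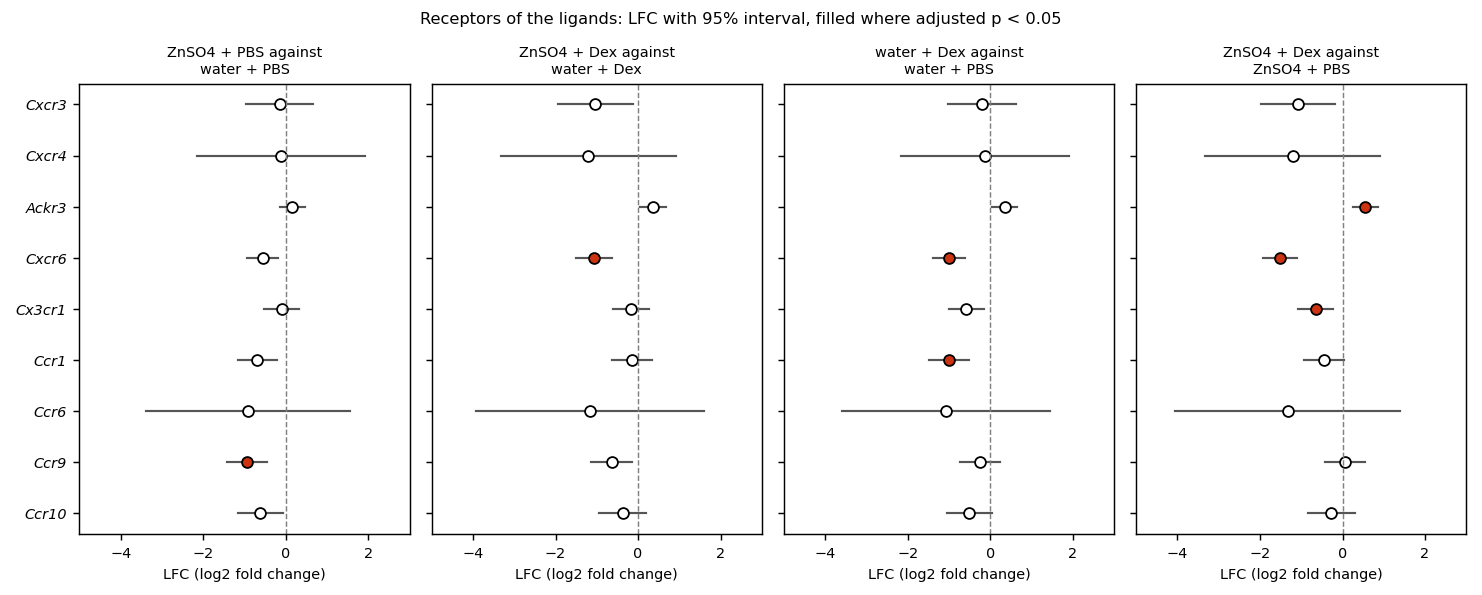
LFC (horizontal axis, log2) with its 95% interval for the 9 tested receptors of the ligands in the 4 comparisons of 1 agent at a time, filled where the adjusted p was under 0.05. Cxcr6 is filled and below 0 in 3 of the 4 comparisons, and the wide intervals belong to Cxcr4 and Ccr6.

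Of 31 further chemokine ligands, 16 were tested. With ZnSO4 in PBS mice 1 rose (beside 2.11% of all genes) and 2 fell (2.54%). With Dex in water mice 1 rose (5.41%) and 4 fell (4.51%). Ccl8, a monocyte attractant, had 65.2, 39.1 and 36.1 normalised counts in water + PBS and 8.49, 10.98 and 13.9 in ZnSO4 + PBS mice, without overlap (LFC -2.06, SE 0.32, adjusted p = 0.00544). It was lower with ZnSO4 in Dex mice too (LFC -2.98, adjusted p = 0.000796). Ccl5, made by T cells, fell with ZnSO4 in PBS mice (LFC -1.16, adjusted p = 0.0414), and Cxcl14, an epithelial chemokine, rose (LFC 0.52, SE 0.13, adjusted p = 0.0381).

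Cxcl11, the last of the CXCR3 ligands, lies 10654 bases beyond Cxcl10 and had 15.6, 11.04 and 7.601 normalised counts in water + PBS, 2.23, 3.24 and 3.24 in water + Dex, 9.43, 15.6 and 14.8 in ZnSO4 + PBS and 3.11, 1.92 and 5.34 in ZnSO4 + Dex mice. It fell with Dex in water mice (LFC -1.92, SE 0.46, adjusted p = 0.0201), and its zinc LFC in PBS mice was 0.22 (95% interval -0.56 to 0.998, adjusted p = 0.776). Of the CXCR3 ligands, zinc in PBS mice therefore had calls for Cxcl9 and Cxcl10, and Dex in water mice for Cxcl10 and Cxcl11. Cxcl5 and Ccl2, attractants of neutrophils and monocytes, fell with Dex in water mice (adjusted p = 0.0114 and 0.0105), from 13.6, 33.1 and 16.15 to 0, 0 and 3.24 for Cxcl5 and from 31.1, 61.2 and 12.35 to 1.115, 0 and 1.08 for Ccl2. Both were at 0 in all ZnSO4 + Dex mice. Ccl12, a monocyte attractant, fell as well (LFC -2.33, adjusted p = 0.0423), and Ccl17, the ligand of CCR4, rose with Dex in water mice from 3.89, 11.04 and 8.55 to 22.3, 33.5 and 24.85 (LFC 1.77, SE 0.42, adjusted p = 0.0205).

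Cxcl9 and Cxcl10 are switched on through interferon receptors and Irf1. Of 10 tested genes of this route, 2 fell with ZnSO4 in PBS mice (Irf1 and Stat2), beside 2.54% of all genes. With Dex in water mice, Irf1 also fell. Irf1, a transcription factor induced by interferon gamma, had 3183, 3462 and 2564 normalised counts in water + PBS, 1844, 1773 and 1657 in ZnSO4 + PBS, 1300.0, 1353 and 1422 in water + Dex and 843, 869 and 921 in ZnSO4 + Dex mice, with no overlap between the groups. Its LFC was -0.80 (SE 0.10, adjusted p = 0.00148) for zinc in PBS mice and -1.18 (SE 0.10, adjusted p = 2.24e-05) for Dex in water mice. The order of the 4 groups was that of Cxcl10. It was not that of Cxcl9, which was lowest in ZnSO4 + PBS mice and had a Dex LFC of -0.27 in water mice that was not called. Whether Irf1 has a part in the values of Cxcl9 or Cxcl10 was not tested. Ifng, the gene of interferon gamma itself, had 6 reads or fewer in each mouse and was not tested.

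Genes of the NF-kB and IL-17 route, which induces Cxcl1 and Ccl20, had 1 call of 11 tested with ZnSO4 in PBS mice and 3 with Dex in water mice, all lower. Of all genes, 2.54% and 4.51% were called lower in these comparisons. Nfkbiz, a cofactor of NF-kB, fell with zinc (LFC -1.25, SE 0.19, adjusted p = 0.00542) and with Dex (LFC -0.74, adjusted p = 0.0313). Il1b and Tnf, cytokines that activate NF-kB, fell with Dex in water mice (LFC -3.85, adjusted p = 0.000164, and LFC -2.35, adjusted p = 0.0318). Nfkbia, the inhibitor of NF-kB, rose with Dex over both waters (LFC 0.88, adjusted p = 0.00217). Among 9 genes of chemokine processing and mRNA decay, Zc3h12a, a ribonuclease that degrades inflammatory mRNAs, fell with zinc in PBS mice (LFC -1.20, adjusted p = 0.00393) and with Dex in water mice (LFC -0.98, adjusted p = 0.00384), as did Zfp36l1 with Dex (LFC -0.88, adjusted p = 0.00164). The sheddases Adam10 and Adam17, which release Cx3cl1 and Cxcl16 from the membrane, fell with zinc over both injections (LFC -0.33, adjusted p = 0.00318, and LFC -0.30, adjusted p = 0.0168).

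The genes whose levels ran most like each member across the 12 mice are given as a description, since all points share the 4 treatments. For Cxcl9 they were Gm12250 (Pearson r = 0.941), B3gnt7 (0.933) and Ifi47 (0.928), and for Cxcl10 Rilpl2 (0.982), Irf8 (0.974) and Gm13461 (0.973). Cxcl1 ran most like Ccl2 (0.945), Ptx3 (0.943) and Smarcd1 (0.937). Cxcl16 ran with Serpinb9 (0.93) and Cd3g (0.923). Ccl28 ran with Fut4 (0.978), CT025731.4 (0.975) and Elac1 (0.974), Ccl6 with Alox15 (0.964), Fbh1 (0.942) and Mtus2 (0.933), and Ccl25 with Tmem30b (0.953), Ppp2r5b (0.936) and Ugt2b34 (0.932). Cx3cl1 followed Limd1 (0.978), Fzr1 (0.967) and Spsb2 (0.966). The weakest likenesses were those of Ccl20, led by Nfkbia (0.865), Ier5 (0.847) and Tmem128 (0.838), and of Cxcl12, led by Uimc1 (0.883), Prdm11 (0.862) and Tcf4 (0.86).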

How the data were processed

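RNA of 12 ileum samples was made into stranded libraries and sequenced single-end. Per the submitters' processing notes, Trimmomatic, HISAT2 2.0.4, SAMtools and featureCounts were used with mm10, and the authors excluded multiply mapping reads. The deposited values are raw counts per Ensembl gene. The annotation release and strand setting are not given in the sources used here. Samples were grouped by their titles. Symbols were matched for 54723 of 54838 identifiers (GENCODE, GRCm38).

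In R 4.3.3 with edgeR 4.0.16, genes were filtered with filterByExpr by group (minimum count 10), which kept 15938 genes with 99.83% of the counts. A quasi-likelihood model of 4 group means with TMM factors was fitted, and p-values were adjusted by Benjamini-Hochberg over all tested genes (threshold 0.05). SE is the LFC divided by the root of the F statistic, and intervals use the t distribution of the fit. Counts were normalised by dividing them by each library's effective size and multiplying by the mean effective size (11377723). Reads per kb use the merged exons. The procedure was tested on simulated data. The labels' replicate numbers were checked for pairing: deviations of same-numbered mice had a median correlation of -0.06 over 18 pairs, beside 0.02 for 36 other pairs, so the numbers were not used. No libraries were alike within sampling noise.

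Named were the 10 members, their receptors, up to 5 called genes per list and comparison with the lowest adjusted p, the 3 genes most like each member (log2 CPM, prior count 2) and treatment controls. A gene that this rule names is not reported here. The members and lists were chosen with earlier results of these data known. Alternatives were DESeq2 1.42.0, other scaling factors and filters, a replicate block, a B cell covariate and left-out libraries.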

Additional observations from a re-analysis of the deposited data

How the results depend on the processing

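The 26 ligand LFCs called kept their direction under all 524 alternatives tried and their call under 471 of them. Of the 966 alternatives tried on the 47 uncalled values, 16 passed the threshold and 48 changed sign, most of them for Cxcl12, whose LFCs are near 0. The call rule with an LFC above 0.8 in size left 2 of 4 ligands for zinc over both injections and 4 of 7 for Dex over both waters. For zinc in PBS mice, 2 ligands were called, 1 with only genes of at least 10 counts in every library, 0 with only the 2 groups compared in the fit, and 0 without the 2 libraries richest in B cell reads, a setting chosen after seeing the data. With 0 called by edgeR, Cxcl9 and Cxcl10 then had adjusted p of 0.0579 and 0.051, and of 0.0852 and 0.0614, at LFCs of -1.66 to -1.78. For Dex in water mice, 2 of 4 remained with at least 10 counts in every library, since Cxcl1 and Cxcl10 were then not tested. The drop to 1 call (Cxcl9) for zinc in PBS mice under the same filter likewise came from Cxcl10 not being tested. For zinc in Dex mice, 0 became 1 (Cxcl9) by DESeq2 (adjusted p = 0.0133), with all genes of at least 1 count (0.0354), and with only the groups compared (0.0256). The cause was not tested in the other cases.

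No pairing of the mice by replicate number was detected. A fit with the replicate block gave 1 call for zinc in Dex mice (Cxcl9, adjusted p = 0.0447) in place of 0. That fit also added Cxcl16 for Dex in water mice (0.0477) and lost Ccl6 for Dex over both waters (0.0502). The value of Cxcl1 for zinc over both injections, 0.04 from few reads, became -0.047 with the block and -0.011 with the B cell covariate.

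Cxcl12 turned from -0.01 to 0.07 for Dex in water mice with the covariate (0.0709) and without the B cell-rich libraries (0.0713), and from 0.0045 to -0.0015 by DESeq2, to -0.0015 with RLE factors and to -0.0010 without those libraries for zinc in Dex mice. It turned from -0.0048 to 0.026 with upper-quartile factors, 0.12 with the covariate and 0.070 without those libraries for the combined treatment, and from -0.02 to 0.02 with upper-quartile factors (0.0210) and the covariate (0.0186) for zinc over both injections.

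With each library left out in turn, the number of ligands called ranged from 1 to 3 for zinc in PBS mice, 3 to 4 for Dex in water mice, 0 to 1 for zinc in Dex mice, 3 to 5 for Dex in ZnSO4 mice, 5 to 6 for the combined treatment, 3 to 5 for zinc over both injections and 4 to 7 for Dex over both waters. The extremes came without the first ZnSO4 + PBS mouse (1) and the second water + PBS mouse (3) for zinc in PBS mice, without the third water + PBS mouse (1), without the third ZnSO4 + Dex mouse (5) and without the third water + Dex mouse (4). Signs changed within these ranges: Cxcl12 from -0.23 to 0.0728 for zinc in PBS mice, -0.10 to 0.067 for Dex in water mice, -0.057 to 0.093 for zinc in Dex mice, -0.079 to 0.22 for Dex in ZnSO4 mice, -0.065 to 0.069 for the combined treatment, -0.11 to 0.038 for zinc over both injections and -0.044 to 0.11 for Dex over both waters. Cxcl9 ranged from -0.60 to 0.036 for Dex in water mice and from -0.088 to 0.22 for Dex over both waters, Ccl20 from -1.12 to 0.17 for zinc in Dex mice and from -0.39 to 0.95 for the combined treatment, and Cxcl1 from -0.48 to 1.03 for zinc over both injections. The log2 difference of the Cxcl9 to Cxcl10 ratio between Dex and PBS mice ranged from 2.97 to 3.19. Depth limits Cxcl1, with at most 46 reads in a library, and Cxcl10 after Dex.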
